A study of Rattus norvegicus with 8 samples.

Results

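The genes described here encode the parts of the inflammasome, the caspases that act in it or beside it, and the cytokines that it releases. They are *Nlrp3*, *Pycard*, *Casp1*, *Gsdmd*, *Il1b* and *Il18*, together with *Casp8* and *Casp9*, which start the death receptor and the mitochondrial routes of apoptosis. Members were found as every probe, control spots aside, whose RefSeq accession belongs to 1 of these 8 rat symbols. Of the 8 genes, 7 had a matched probe, with 11 probes between them among the 45598 on the array, and the array carries 16678 named genes in all. No probe was matched to *Gsdmd*, which encodes the pore-forming protein of pyroptosis, and it is not analysed here. *Nlrp3* had 3 probes, *Casp8* and *Casp9* had 2 each, and the other genes had 1.

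The inflammasome is a complex that assembles in the cytosol of activated macrophages and microglia. A sensor such as NLRP3 binds the adaptor ASC, the product of *Pycard*, which recruits and activates caspase 1. The active protease cuts the precursors of both cytokines and opens gasdermin D, so much of its control lies in assembly and cleavage, which RNA does not show. A first signal through Toll-like or cytokine receptors and NF-κB raises the RNA of *Nlrp3* and *Il1b*, and microglia are the main source of these RNAs in the brain.

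RNA came from the *substantia nigra* (SN) of female Sprague Dawley rats that were 3 months old at surgery and were killed 20 weeks after it. Each rat had received 1 vector into the SN of 1 side, either AAV6-αSyn at 5.2e10 vg/µL, which carries human wild-type α-synuclein, or the control vector AAV6-Null at 5.3e9 vg/µL. The study assigned 10 rats to each group, and 4 arrays per group are used here, 1 array per sample. The titre differs between the groups, so the effects of the transgene and of the vector dose cannot be told apart.

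Each sample was labelled with Cy3 and read on a 1-colour Agilent array, and all 8 arrays lie on 1 slide. Levels are given as log2 intensity after quantile normalization between the arrays, in arbitrary units, and the level of 1 probe cannot be set against that of another. Between 74.8% and 77.5% of the spots on an array were well above background. The median intensity ran from 261 to 338. The tissue label was checked against markers, and all 8 markers of dopaminergic neurons and all 10 of microglia were above background on all 8 arrays. AAV-Null replicate 3 had the lowest median correlation with the other arrays, 0.985 against 0.991 for the highest, and *Casp1*, *Il1b* and *Il18* had their lowest value on it.

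Differences are AAV-αSyn minus AAV-Null on the log2 scale, tested with limma at 33853 probes and adjusted over all of them by the Benjamini–Hochberg method. None of the 11 probes passed the adjustment, with adjusted p-values from limma between 0.747 and 0.999, where 0.0148% of all probes did. Before adjustment, p was under 0.05 for 1 of the 11 probes (9.09%), a *Casp8* probe that was higher in the AAV-αSyn group. Among all probes the share was 5.64%, with 3.31% higher and 2.32% lower, so 1 of 11 is near the background. The groups of arrays did not overlap for the same probe alone, where 2.57% of all probes were higher and 1.26% lower without overlap. Fold changes were above 0 for 8 probes and below 0 for 3, and 52.4% of all probes were above 0. Their median was 0.03, against 0.01 over all probes, and 3 of the 11 probes belong to *Nlrp3*. With only the brightest probe of each gene the median was 0.15, with 5 genes above 0 and 2 below. The median absolute fold change of the 11 probes was 0.15, against 0.10 over all probes. The standard error was 0.16 at the median probe of these genes and 0.13 over all probes.

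**Figure D1:**
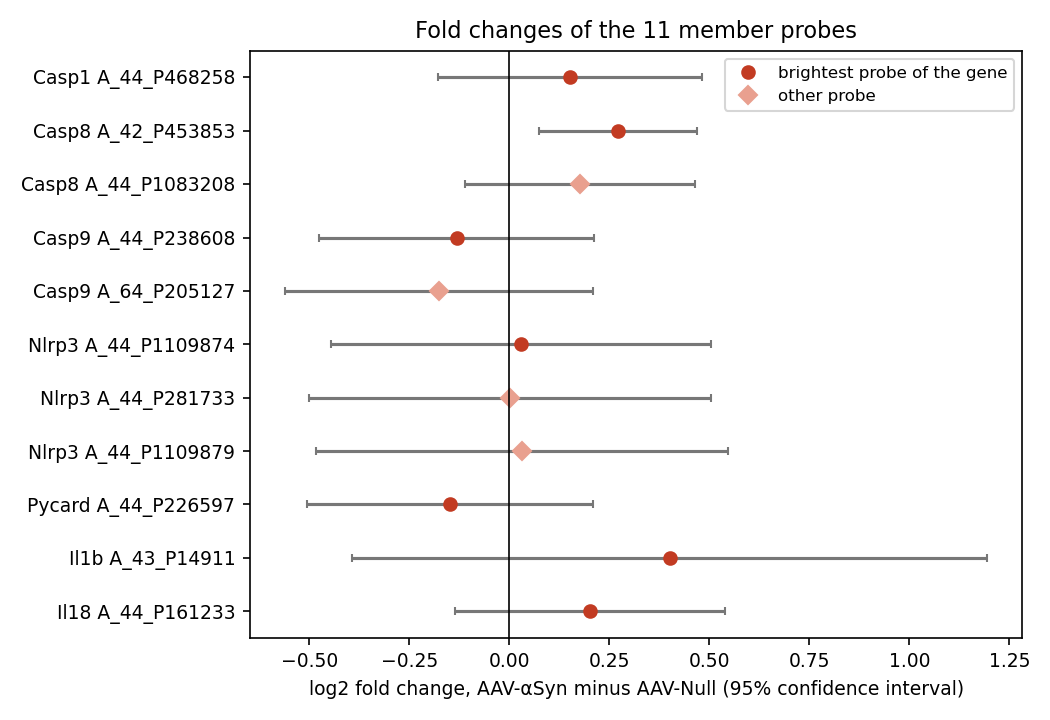
Log2 fold change (AAV-αSyn minus AAV-Null, x axis) of the 11 probes, named by gene and probe, with 95% confidence intervals from limma on 4 arrays per group. The interval of 1 *Casp8* probe lies above 0, from 0.07 to 0.47, and the intervals of the other 10 probes include 0.

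*Nlrp3* encodes the sensor that starts assembly. Its brightest probe (A_44_P1109874, XM_006246453) read 6.35, 6.50, 6.59 and 6.31 in the AAV-Null group and 6.91, 6.61, 6.50 and 5.86 in the AAV-αSyn group, with the arrays in the order of their replicate numbers here and below. The AAV-Null arrays lay close together, and the AAV-αSyn group held both the highest array (replicate 1) and the lowest (replicate 4). The means were 6.44 ± 0.13 (SD, n = 4 arrays) for AAV-Null and 6.47 ± 0.44 (SD, n = 4) for AAV-αSyn. The log2 fold change was 0.03 (95% confidence interval −0.45 to 0.50), with an unadjusted p of 0.891 from limma. The interval therefore includes changes of about the size of any other gene described here, in either direction.

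The same pattern of arrays was seen on the other *Nlrp3* probes, which read the same RNA samples and are not further replicates. Probe A_44_P281733 (NM_001191642) read 4.73, 4.62, 4.82 and 4.61 on the AAV-Null arrays and 5.28, 4.75, 4.64 and 4.11 on the AAV-αSyn arrays. Probe A_44_P1109879 (NM_001191642) read 3.80, 4.06, 4.09 and 3.66, then 4.42, 3.91, 4.08 and 3.32. AAV-αSyn replicate 1 was the highest and replicate 4 the lowest of all arrays on each of the 3 probes. The last probe is dim: it was above background on 3 of 4 AAV-Null arrays and on 4 of 4 AAV-αSyn arrays. The fold changes of these probes were 0.00 and 0.03, and that of A_44_P281733 changed sign with the scaling of the arrays (−0.03 with 75th percentile scaling and −0.01 with cyclic loess).

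*Nlrp3* varied more within groups than most of the array. The pooled SD within groups of its 3 probes stood at the 79.2, 81.5 and 82.5 percentiles of all probes tested. Leaving out AAV-αSyn replicate 4 gave a fold change of 0.23 for the brightest probe (adjusted p = 1 in limma), and leaving out AAV-αSyn replicate 1 gave −0.12 (adjusted p = 0.999). The arrays stand in 2 columns on the slide, each with 2 arrays of each group, and the difference was 0.30 in the first column and −0.24 in the second.

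*Pycard* (A_44_P226597, NM_172322) encodes ASC, the adaptor that joins sensor and caspase. It read 8.99, 8.80, 8.90 and 8.67 on the AAV-Null arrays and 9.14, 8.65, 8.53 and 8.46 on the AAV-αSyn arrays. As with *Nlrp3*, AAV-αSyn replicate 1 was the highest of the 8 arrays and AAV-αSyn replicate 4 the lowest, while the other AAV-αSyn arrays lay just under the AAV-Null range. Its log2 fold change was −0.15 (95% confidence interval −0.50 to 0.21, exact permutation test, two-sided, p = 0.4). Without AAV-αSyn replicate 1 it was −0.30, with an unadjusted p of 0.0237 and an adjusted p of 0.95 in limma. Without AAV-αSyn replicate 4 it was −0.07, and without AAV-αSyn replicate 3 or AAV-Null replicate 1 it was −0.10. Within the columns of the slide it was 0.10 and −0.39.

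*Casp1* (A_44_P468258, NM_012762) encodes the inflammatory caspase that the complex activates. It read 7.90, 7.58, 7.53 and 8.10 on the AAV-Null arrays and 8.10, 7.98, 7.87 and 7.76 on the AAV-αSyn arrays. AAV-Null replicate 4 and AAV-αSyn replicate 1 shared the highest value, and the AAV-αSyn arrays lay within the range of the AAV-Null arrays. On average it was 0.15 higher in the AAV-αSyn group (95% confidence interval −0.18 to 0.48, exact permutation test, two-sided, p = 0.343). It was 0.15 and 0.16 in the columns of the slide. With 1 array left out it ran from 0.07, without AAV-Null replicate 3, to 0.26, without AAV-Null replicate 4 (adjusted p = 0.627 in limma).

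**Figure D2:**
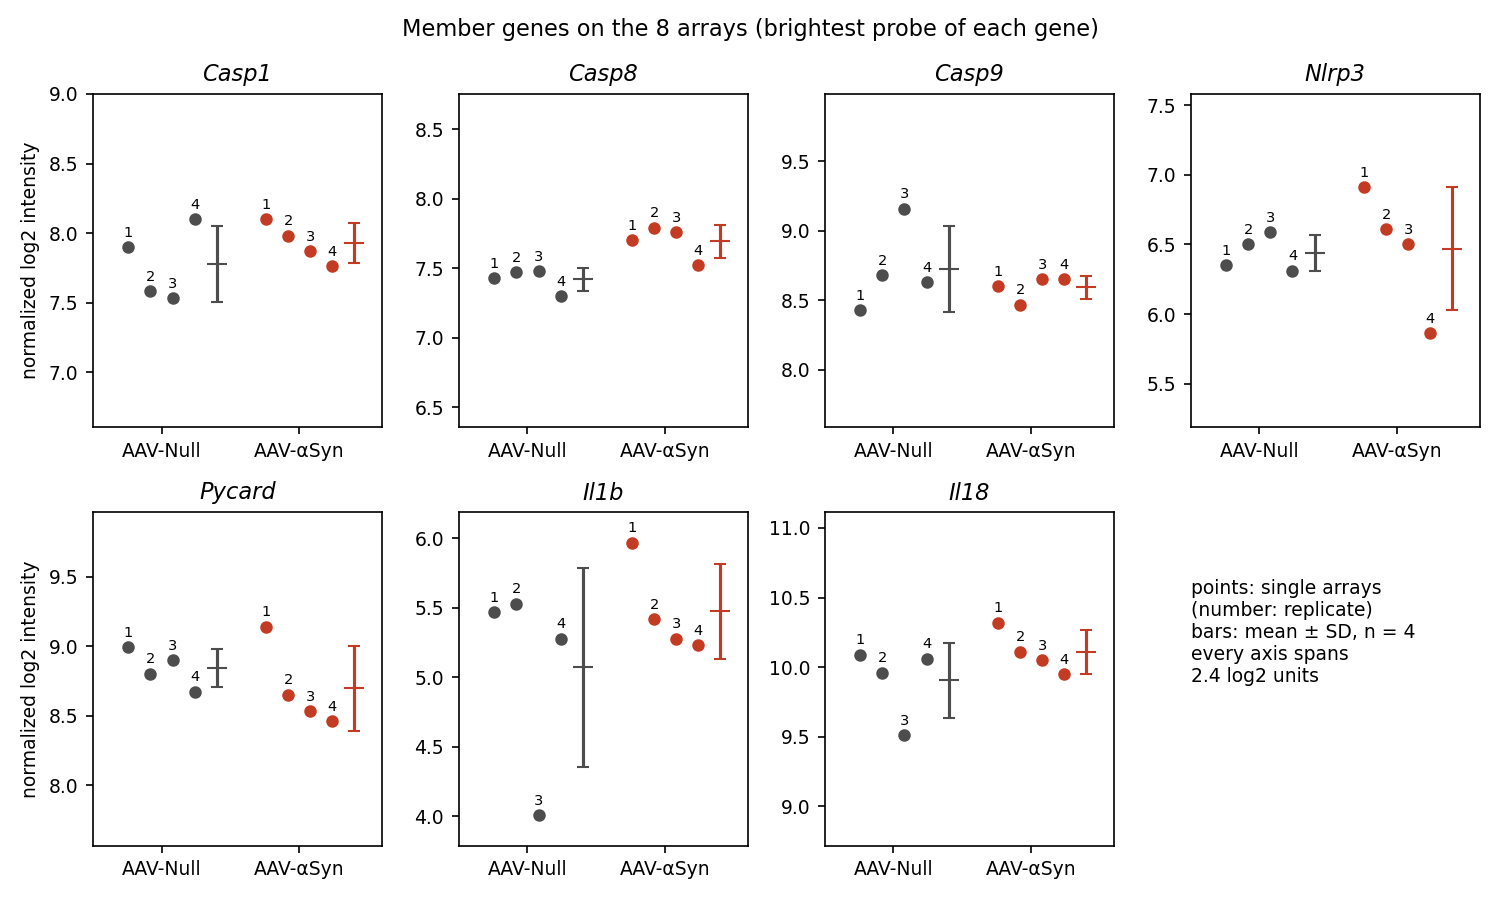
Normalized log2 intensity (y axis, 2.4 units on every panel) of the brightest probe of each of the 7 genes on the 8 arrays. Points are single arrays with their replicate number, and bars are the mean ± SD of 4 arrays. The groups are separate for *Casp8* alone, and AAV-Null replicate 3 stands below the other arrays for *Il1b* and *Il18* and above them for *Casp9*.

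*Il1b* and *Il18* encode the cytokines that caspase 1 matures, interleukin 1β and interleukin 18. *Il1b* (A_43_P14911, NM_031512) read 5.47, 5.53, 4.01 and 5.28 on the AAV-Null arrays and 5.97, 5.42, 5.28 and 5.23 on the AAV-αSyn arrays. AAV-αSyn replicate 1 was the highest and AAV-Null replicate 3 by far the lowest, and the other 6 arrays lay together. The means were 5.07 ± 0.71 (SD, n = 4) and 5.48 ± 0.34 (SD, n = 4). The log2 fold change was 0.40 (95% confidence interval −0.39 to 1.19). As a fold this is 1.32, with an interval from 0.761 to 2.29. In limma the unadjusted p was 0.279 and the adjusted p 0.972, and the exact permutation test, two-sided, gave 0.543.

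The difference in *Il1b* rested on 1 array. Without AAV-Null replicate 3 the log2 fold change was 0.05 (adjusted p = 0.973 in limma). It was 0.24 without AAV-αSyn replicate 1 and between 0.42 and 0.55 without any of the others. The spot on that array was still called well above background. With the normexp background correction, which adds an offset before the logarithm, the fold change was 0.11. The SD of *Il1b* within groups was at the 93.2 percentile of all probes, the highest of the genes described here.

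*Il18* (A_44_P161233, NM_019165) read 10.09, 9.96, 9.51 and 10.06 on the AAV-Null arrays and 10.32, 10.11, 10.05 and 9.95 on the AAV-αSyn arrays. The same arrays stood at the ends as for *Il1b*: AAV-Null replicate 3 was the lowest and AAV-αSyn replicate 1 the highest. Its log2 fold change was 0.20 (95% confidence interval −0.14 to 0.54, exact permutation test, two-sided, p = 0.314). It was 0.17 and 0.23 in the columns of the slide, and 0.07 without AAV-Null replicate 3 (adjusted p = 0.909 in limma). It was 0.13 without AAV-αSyn replicate 1 and between 0.20 and 0.26 without any of the others.

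Because *Il1b* and *Il18* had their extreme values on the same arrays, the promoters of both genes are shown, as RefSeq gives them on the rat assembly GRCr8. Each window is 300 bases long, with 250 before the start of transcription and 50 after it, and is written 5′ to 3′ on the strand of the gene. *Il1b* lies on the minus strand at chr3:137036532-137036831 and *Il18* on the plus strand at chr8:59801822-59802121. The capitals mark the TATA motif, TATAAA, in *Il1b* and a match to the AP-1 core TGANTCA in *Il18*.
Il1b: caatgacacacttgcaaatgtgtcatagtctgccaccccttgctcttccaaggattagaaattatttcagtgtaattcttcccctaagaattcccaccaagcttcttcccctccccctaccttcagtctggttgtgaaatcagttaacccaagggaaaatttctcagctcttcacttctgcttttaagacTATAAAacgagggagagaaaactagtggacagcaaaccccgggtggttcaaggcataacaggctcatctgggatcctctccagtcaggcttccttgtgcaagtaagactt
Il18: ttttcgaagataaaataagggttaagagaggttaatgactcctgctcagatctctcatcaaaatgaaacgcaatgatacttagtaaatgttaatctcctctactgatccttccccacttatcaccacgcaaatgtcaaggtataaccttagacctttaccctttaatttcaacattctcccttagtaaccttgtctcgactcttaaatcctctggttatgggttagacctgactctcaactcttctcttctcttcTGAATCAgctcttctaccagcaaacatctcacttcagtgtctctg
The TATA match starts at base 191 of its window and the AP-1 match at base 256. Both strands of each window were searched for these motifs, for the core GAGGAA that the myeloid factor PU.1 binds, and for the NF-κB consensus. A window was at hand for 6 of the 8 genes, *Casp1*, *Casp9*, *Nlrp3*, *Pycard*, *Il1b* and *Il18*. Of these, the TATA match was found in *Il1b* only, the AP-1 match in *Il18* only, the PU.1 core in *Casp1* and *Nlrp3*, and the NF-κB consensus in 0 of 6. Over 33469 promoters of the same length, 14.2% hold the TATA motif, 27.6% the PU.1 core, 7.33% the AP-1 core and 4.18% the NF-κB consensus. The 2 cytokine windows thus share none of the motifs searched, and a match is a match of letters only.

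*Casp8* encodes the caspase that death receptors activate, which can also cut the interleukin 1β precursor and holds necroptosis in check. Its brightest probe (A_42_P453853, NM_022277) read 7.43, 7.47, 7.48 and 7.30 on the AAV-Null arrays and 7.70, 7.79, 7.76 and 7.52 on the AAV-αSyn arrays. The groups did not overlap: the AAV-αSyn arrays were all higher, with the lowest AAV-αSyn array (replicate 4) just over the highest AAV-Null array (replicate 3). The means were 7.42 ± 0.082 (SD, n = 4) and 7.69 ± 0.12 (SD, n = 4). The log2 fold change was 0.27 (95% confidence interval 0.07 to 0.47). As a fold this is 1.21, with an interval from 1.05 to 1.38. In limma the unadjusted p was 0.0132 and the adjusted p 0.747. The exact permutation test, two-sided, gave 0.0286, the smallest p that 4 arrays against 4 allow. In bulk tissue a change in the number of cells of a type and a change in RNA per cell cannot be told apart.

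The second *Casp8* probe (A_44_P1083208, NM_022277) read 6.97, 6.99, 7.11 and 6.82 on the AAV-Null arrays and 7.41, 7.23, 7.09 and 6.87 on the AAV-αSyn arrays. Here the groups overlapped, since AAV-αSyn replicates 3 and 4 lay within the AAV-Null range. Its log2 fold change was 0.18 (95% confidence interval −0.11 to 0.46, exact permutation test, two-sided, p = 0.257), so both probes were higher on average but only the brightest passed the unadjusted threshold. Without AAV-αSyn replicate 1 the second probe had 0.09, and without AAV-αSyn replicate 4 it had 0.27, with an unadjusted p of 0.0472 and an adjusted p of 1 in limma. Within the columns of the slide the difference was 0.34 and 0.20 for the brightest probe and 0.34 and 0.01 for the second.

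The unadjusted p of the brightest *Casp8* probe stayed between 0.00523 and 0.0418 in limma when any 1 array was left out. With the normexp background correction its fold change was 0.15 and its p was 0.0625 (limma, unadjusted). The adjusted p did not go below 0.538 in any of the settings run. The spread of this probe within groups was small, at the 17.8 percentile of all probes.

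*Casp9* encodes the initiator caspase of the mitochondrial route, which the apoptosome activates. Its brightest probe (A_44_P238608, NM_031632) read 8.43, 8.68, 9.16 and 8.63 on the AAV-Null arrays and 8.60, 8.47, 8.65 and 8.65 on the AAV-αSyn arrays. AAV-Null replicate 3, where *Il1b* and *Il18* were lowest, was here the highest, and the AAV-αSyn arrays lay inside the AAV-Null range. The log2 fold change was −0.13 (95% confidence interval −0.47 to 0.21, exact permutation test, two-sided, p = 0.571). Without AAV-Null replicate 3 it was 0.01, and without AAV-Null replicate 1 it was −0.23. The second probe (A_64_P205127, NM_031632) read 5.96, 6.11, 6.75 and 6.50, then 6.23, 6.11, 6.17 and 6.11, with a difference of −0.18 (p = 0.371 by exact permutation). Without AAV-Null replicate 3 its difference was −0.04, and without AAV-Null replicate 1 it was −0.30.

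**Figure D3:**
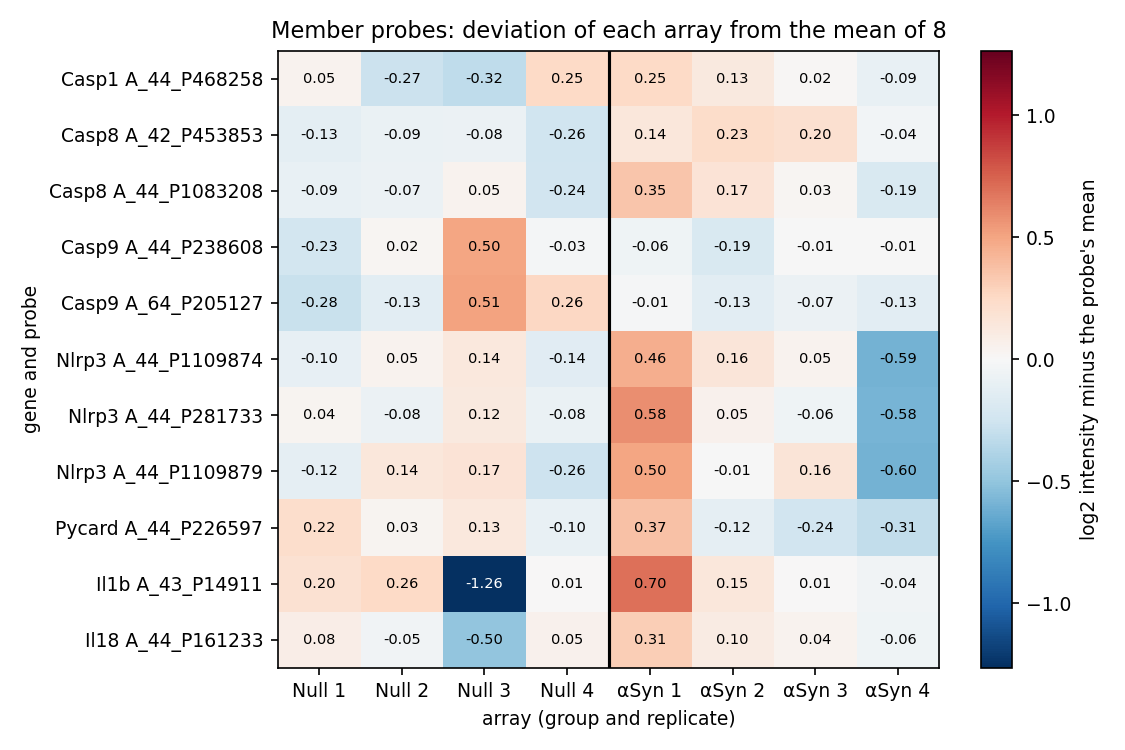
Log2 intensity of each of the 11 probes (rows) on each array (columns, AAV-Null on the left and AAV-αSyn on the right) minus the mean of the probe over the 8 arrays, as the colour and the printed value. AAV-αSyn replicate 1 is high in most rows, AAV-αSyn replicate 4 is low for *Nlrp3* and *Pycard*, and AAV-Null replicate 3 is low for *Il1b* (−1.26) and *Il18* (−0.50) and high for *Casp9* (0.50 and 0.51).

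Read by array and not by gene, 3 arrays held most of the extreme values. AAV-αSyn replicate 1 was the highest of the 8 arrays for 7 of the 11 probes and shared the highest value for *Casp1*. AAV-αSyn replicate 4 was the lowest for 4 probes and AAV-Null replicate 3 for 3. The AAV-αSyn group thus held the highest array for most probes and also the lowest array for *Nlrp3* and *Pycard*.

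Over the 8 arrays the closest pair was *Il1b* and *Il18*, with a Pearson correlation of 0.96 and a Spearman correlation of 0.74. The Pearson correlation was 0.81 without AAV-Null replicate 3. It was 0.14 without the 2 most distant arrays, here AAV-Null replicate 3 and AAV-αSyn replicate 1, so it rests on those arrays. The 2 most distant arrays are those farthest from the median of the gene named first in the pair, so they can differ between pairs. *Casp1* and *Il18* correlated at 0.82 (Spearman 0.90), at 0.75 without AAV-Null replicate 3 and at 0.74 without the 2 most distant arrays. *Nlrp3* and *Pycard* correlated at 0.67, and at −0.19 without the 2 most distant arrays. The negative values of *Casp9* with *Il18* (−0.86) and with *Il1b* (−0.85) were −0.34 and −0.13 without AAV-Null replicate 3, and their Spearman correlations over all 8 arrays were −0.83 and −0.50. Other pairs rose without AAV-Null replicate 3. *Pycard* with *Il1b* went from 0.15 to 0.88 and *Nlrp3* with *Il18* from 0.22 to 0.78. Without the 2 most distant arrays these 2 pairs stood at −0.28 and −0.45. All these values are descriptions of 8 arrays that share a slide and a normalization, and 21 pairs were computed.

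The named genes whose brightest probe went most closely with each member were taken from 12591 genes over the 8 arrays. They were *Syk* and *Lrch4* for *Nlrp3* (Pearson 0.95 both), *Cyth4* and *Nme4* for *Pycard* (0.95 both), and *Clec4a* and *Rras2* for *Casp1* (0.96 both). For *Casp8* they were *Itga6* and *Wfikkn1* (0.96 both). *Il1b* went with *Zfp800* and *Cttnbp2nl* (0.98 both), *Il18* with *Hist1h2bo* and *Rpl36a* (0.99 both), and *Casp9* with *Fbxw9* and *Ddx47* (0.99 both). Over the same arrays the Spearman correlations of these pairs ran from 0.64, for *Casp9* with *Ddx47*, to 1, for *Casp1* with *Rras2* and *Pycard* with *Cyth4*. *Il1b*, *Il18* and *Casp9* had AAV-Null replicate 3 at an end of their range, and these correlations were not recomputed without it. Each Pearson value is the highest of many over few arrays and carries no test.

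Microglia were followed through their markers. The mean log2 level of the 10 microglial markers was 11.38, 11.21, 11.22 and 11.14 on the AAV-Null arrays and 11.41, 11.40, 11.26 and 11.14 on the AAV-αSyn arrays. The groups overlapped over nearly their whole range, no microglial marker had an unadjusted p under 0.05, and the median fold change was 0.07. The mean was highest on AAV-αSyn replicate 1, just above AAV-αSyn replicate 2 and AAV-Null replicate 1, and lowest on both replicates numbered 4. Single markers differed in this. *Aif1* (13.16) and *Cd68* (9.62) were highest on AAV-αSyn replicate 1, whereas *Cx3cr1* was lowest there, at 12.14 against 12.58 on AAV-αSyn replicate 4. Over the 8 arrays the microglial mean correlated at 0.67 with *Nlrp3*, 0.60 with *Casp8* and 0.58 with *Pycard*, at 0.51 with *Il18*, 0.42 with *Il1b* and 0.40 with *Casp1*, and at −0.45 with *Casp9*. The part of microglial RNA in the values above was not tested.

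Other immune cells were followed in the same way. Of the monocyte and neutrophil markers, those not above background on any array included *Ccr2* and *Elane*, and of the lymphocyte markers they were *Cd3e*, *Cd8a* and *Gzmb*. The mean level of the measured monocyte and neutrophil markers ran from 7.25 to 8.48 in the AAV-Null group and from 7.06 to 8.12 in the AAV-αSyn group. That of the lymphocyte markers ran from 5.02 to 5.54 and from 4.64 to 5.86. Blood markers ran from 10.44 to 12.01 and from 10.89 to 11.65.

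Markers of dopaminergic neurons stood lower in the AAV-αSyn group. The mean level of the 8 dopaminergic markers was between 12.57 and 13.00 in the AAV-Null group and between 12.16 and 12.47 in the AAV-αSyn group, with no overlap. All 8 had fold changes below 0, and 5 of them had an unadjusted p under 0.05 in limma, but 0 passed the adjustment. Among all probes, 2.32% were lower at that unadjusted threshold. Taken singly, 3 of the 8 were lower without overlap of the arrays, where 1.26% of all probes were. The 4 markers of raphe neurons had fold changes above 0, 2 of them with an unadjusted p under 0.05 in limma. At that threshold 3.31% of all probes were higher. The mean level of the raphe markers ran from 5.20 to 7.72 in the AAV-Null group and from 7.01 to 8.28 in the AAV-αSyn group. The 7.72 was that of AAV-Null replicate 3, and the other AAV-Null arrays read 5.20, 5.63 and 5.97. The same array was the lowest of its group in the ependymal and choroid plexus markers, at 5.85 against 7.03 to 7.46. AAV-αSyn replicate 1 was lower still in these markers, at 5.62. The values of *Il1b*, *Il18* and *Casp9* on AAV-Null replicate 3 stood apart, while *Il1b* and *Il18* were highest on AAV-αSyn replicate 1. Whether the levels of these markers bear on any of the genes described here was not tested.

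The wider pathway was described with 8 lists of 91 genes, of which 80 had a named probe and 71 were tested. No gene of these lists passed the adjustment. Before adjustment, p was under 0.05 for 1 of the 71 (1.41%), below the 5.64% of all probes, and the groups did not overlap for 1 (1.41%), where 3.83% of all probes did not. Fold changes were above 0 for 43 genes and below 0 for 28, with a median of 0.02. The 9 genes with a probe that was above background on no array were *Nlrp12*, *Casp14*, *Tnfsf10*, *Gsdmc*, *Il1rl1*, *Il36a*, *Il36g*, *Il6* and *Nos2*. *Il6* and *Nos2* encode a cytokine and an enzyme that activated macrophages make, and neither was well above background here. Of the other cytokines in the lists, *Tnf* and *Il1a* were above background on 4 of 4 arrays in each group.

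**Figure D4:**
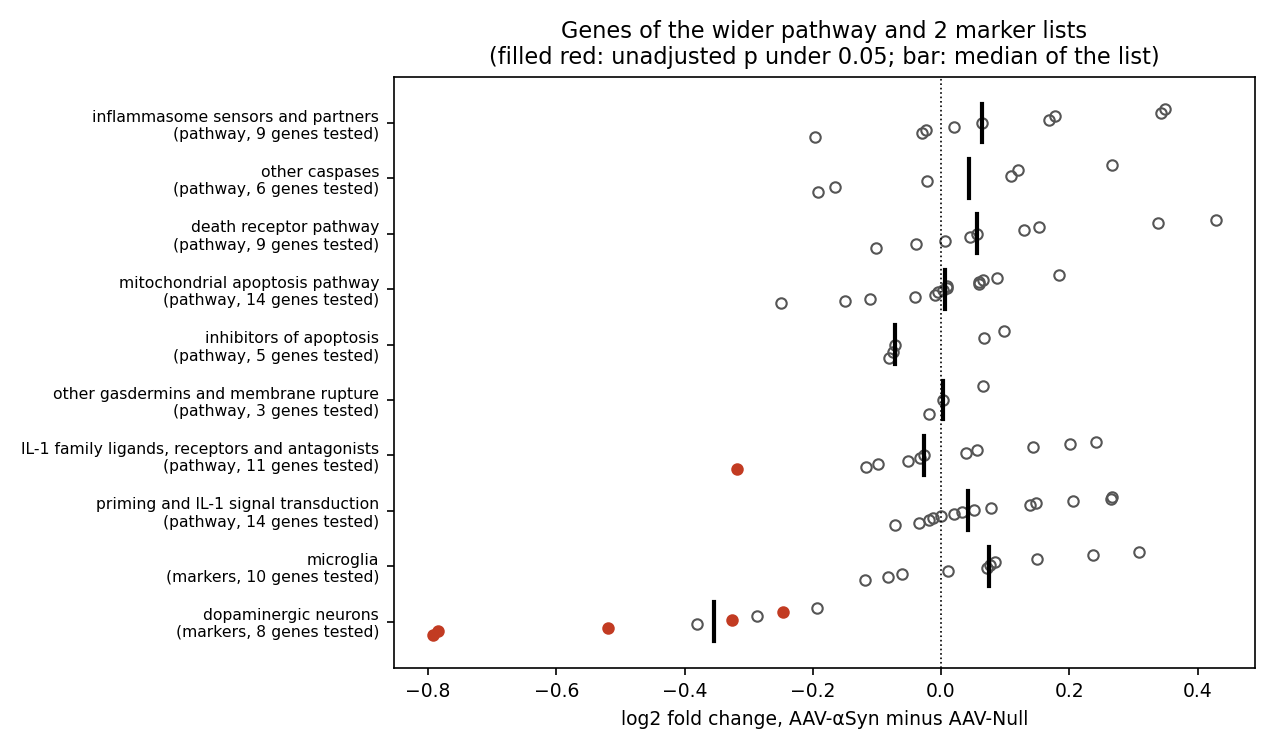
Log2 fold change (AAV-αSyn minus AAV-Null, x axis) of each tested gene of the 8 pathway lists and of the microglial and dopaminergic markers (rows), by brightest probe. Bars are list medians and filled points have an unadjusted p under 0.05 in limma. The pathway medians lie between −0.07 and 0.06, and the dopaminergic median at −0.35.

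Among the other sensors and their partners, 9 of 14 genes were tested and the median fold change was 0.06. *Nlrc4*, which takes part in the response to bacterial flagellin, had 0.35 (exact permutation p = 0.229). It was above background on 1 of 4 AAV-Null and 4 of 4 AAV-αSyn arrays. *Mefv*, which encodes pyrin, had 0.34 (exact permutation p = 0.343). Of the genes whose products act on NLRP3, the ATP receptor *P2rx7* had 0.02 (95% confidence interval −0.51 to 0.55), the kinase *Nek7* −0.02 (−0.29 to 0.25) and *Txnip* 0.17 (−0.15 to 0.49).

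Of the other caspases, 6 of 7 were tested, with a median of 0.04. *Casp6* had a fold change of −0.17 (exact permutation p = 0.714), and *Casp2* had 0.11 (exact permutation p = 0.143). *Casp4*, the inflammatory caspase of the non-canonical route, had 0.27 (exact permutation p = 0.114). None of the 6 passed the unadjusted threshold.

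Around *Casp8*, the death receptor list had 9 of 12 genes tested, 7 above 0 and 2 below, with a median of 0.06. *Ripk1*, the kinase that joins *Casp8* in the complex below the TNF receptor, was 0.15 higher (95% confidence interval −0.01 to 0.32), with a p from limma of 0.0648. It was the single gene of the 71 whose groups did not overlap (exact permutation test, two-sided, p = 0.0286), and it is named after its values were seen. *Ripk3*, the kinase of necroptosis, had 0.34 (exact permutation p = 0.114). *Fadd*, the adaptor of *Casp8*, had 0.43 (exact permutation p = 0.171) and was above background on 2 of 4 AAV-Null and 4 of 4 AAV-αSyn arrays. *Tnf* had −0.10.

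Around *Casp9*, all 14 genes of the mitochondrial route were tested, 8 above 0 and 6 below, with a median of 0.01. *Apaf1*, the scaffold of the apoptosome, and *Cycs*, cytochrome c, both had 0.06. The 5 inhibitors of apoptosis had a median of −0.07, with −0.08 for *Xiap*, which binds active *Casp9*. No gene of either list had an unadjusted p under 0.05.

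With *Gsdmd* not analysed here, 3 of 5 genes for other gasdermins and membrane rupture were tested. *Gsdme*, a gasdermin that caspases cut during apoptosis, had 0.00, *Gsdma* had 0.07, and *Ninj1*, which ruptures the membrane in the last step of lysis, had −0.02.

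On the side of cytokine signalling, 11 of 15 further genes of the IL-1 family were tested, 5 above 0 and 6 below, with a median of −0.03. *Il1rap*, the shared chain of the receptor, was the single gene of the 71 with an unadjusted p under 0.05. Its fold change was −0.32 (95% confidence interval −0.62 to −0.02), with an unadjusted p of 0.0389 and an adjusted p of 0.853 in limma, and it too is named after its values were seen. Its groups overlapped (exact permutation test, two-sided, p = 0.0857). *Il1a* had 0.24, the antagonist *Il1rn* 0.14, the receptor *Il1r1* 0.20 and the decoy *Il18bp* 0.06. Among those below 0, *Il36rn* had −0.10, *Il33* −0.03 and *Sigirr* −0.03. Of the 19 genes of priming and signal transduction, 14 were tested with a median of 0.04, among them *Nfkbia* with 0.27, *Irak2* with 0.27, *Nfkb1* with 0.15 and *Myd88* with −0.02, none with an unadjusted p under 0.05.

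**Figure D5:**
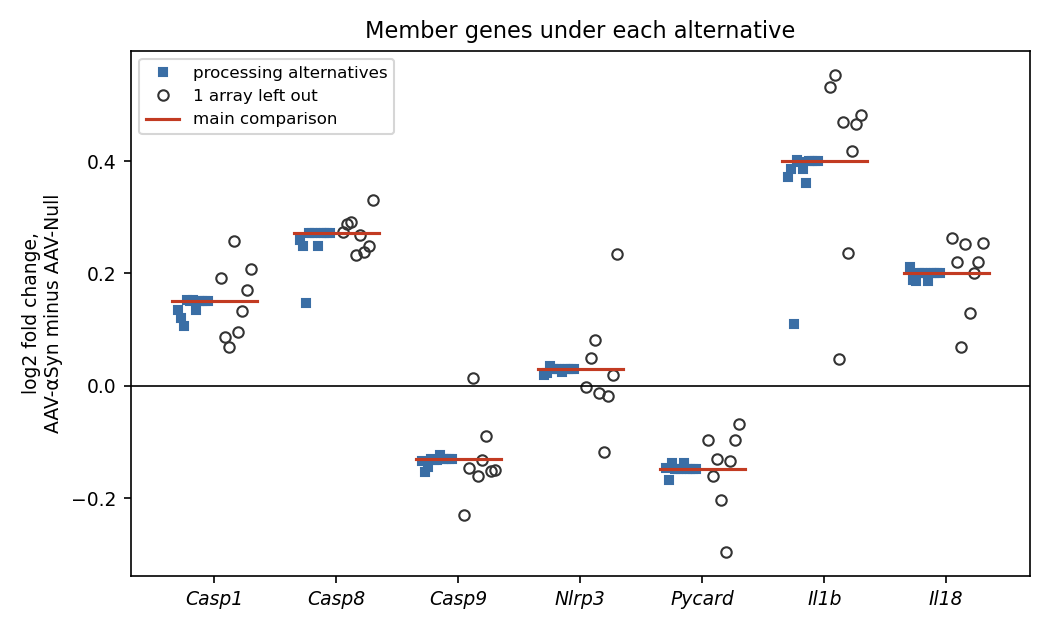
Log2 fold change (y axis, AAV-αSyn minus AAV-Null) of the brightest probe of each gene (x axis) in the comparison reported (line), under 11 processing alternatives (squares) and with 1 of the 8 arrays left out (circles). The values of *Casp8* stay between 0.15 and 0.33, those of *Il1b* fall to 0.05 without AAV-Null replicate 3, and those of *Nlrp3* lie on both sides of 0.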

How the data were processed

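The authors deposited 1 Agilent scanner file per sample and a matrix of their quantile normalized log2 values. The scanner files give the intensity of each spot after the background correction of Feature Extraction, version 11.5.1.1 per the labels and 12.0.3.2 per the file headers, not normalized between arrays. The methods state limma, quantile normalization and 3 biological replicates per group, whereas the labels give 4, and all 8 arrays were used.

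Values were recomputed with R 4.3.3 and limma 3.58.1. The 4259 control features and spots marked as outliers (268 to 418 on each array) were left out, and no spot was saturated. A probe was taken as above background on an array where Feature Extraction marked a share of 0.5 or more of its spots so, and was tested where at least 1 array met this. Log2 intensities were normalized between arrays by quantiles and averaged over the spots of each probe, and groups were compared with lmFit and eBayes, two-sided, without covariates, with Benjamini–Hochberg adjustment over all 33853 probes tested and a threshold of 0.05. Exact tests permuted the 8 arrays in all 70 ways, with 0.0286 as the smallest p. The number of arrays limits the precision. Every member probe is 1 spot, and the brightest probe stands for a gene that has several.

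Names came from RefSeq accessions on GRCr8, which paired 21229 of 45598 probes with a symbol. The members and lists were chosen with earlier results of these data known. Named genes were every member probe, pathway list genes past the adjustment or with the smallest unadjusted p among those under 0.05 without overlap (up to 2 per direction; none met this, while 3 dopaminergic markers did and are given within their list), and the 2 genes most correlated with each member. List genes given otherwise were chosen with their values in view, and some list genes are not reported here. Alternatives were 75th percentile scaling, cyclic loess, normexp with an offset of 50, the filter on dim probes (none, at least 4 arrays, all 8), the deposited matrix, a trended or robust variance, the replicate number or the column of the slide as a block, the mean over probes, and each array left out.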

Additional observations from a re-analysis of the deposited data

Results flagged for a closer look

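In 3 of 60 groups examined, the probes of the members and the mean levels of the lists in each group of 4 arrays, 1 array lay far from the others by Dixon's ratio of gap to range, above the 95% critical value. Chance gives about 1 in 20, which is 3 of 60. For *Il1b* in the AAV-Null group the ratio was 0.837, with replicate 3 at 4.01 and the others between 5.28 and 5.53. For the mean level of the other IL-1 family ligands, receptors and antagonists in the AAV-Null group it was 0.84, with replicate 3 again lowest, at 6.63 against 6.84 to 6.88. For the mean level of the blood markers in the AAV-αSyn group it was 0.868, with replicate 3 at 11.65 and the others between 10.89 and 10.99. *Il1b* was 5.28 on that last array, within the range of the others.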

How the results depend on the processing

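The fold change of each of the 7 genes was recomputed under 11 processing alternatives and with each of 8 arrays left out, 133 values in all. The direction held in 128, the smallest adjusted p was 0.538 and 0 passed the threshold. The 5 that turned were *Casp9* without AAV-Null replicate 3 (0.0135) and *Nlrp3* without AAV-Null replicate 1 (−0.0015), AAV-Null replicate 4 (−0.01), AAV-αSyn replicate 1 (−0.12) or AAV-αSyn replicate 2 (−0.02). Their cause was not tested beyond the array left out. With 1 array left out *Casp9* ran from −0.23 to 0.01 and *Nlrp3* from −0.12 to 0.23. The mean over the probes of *Casp8*, *Casp9* and *Nlrp3* kept the direction.

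The count of members' probes with an unadjusted p under 0.05 in limma was 1, and 0 with the normexp correction. With 1 array left out it ran from 1 to 2, with 2 without AAV-αSyn replicate 1 (*Pycard* added) and without AAV-αSyn replicate 4 (the second *Casp8* probe added). Over all probes, 5 passed the adjustment, 0 with the replicate number as a block, 3 with the column of the slide as a block, 7 with the filter of at least 4 arrays or with the intensity trend, 4 or 5 under the other processing alternatives, and 3 to 5 with 1 array left out, the 3 being without any AAV-Null replicate. Deviations from the group means of equally numbered arrays correlated at 0.14, 0.27, 0.04 and −0.00 for replicates 1 to 4, so the numbers were not taken as pairs. Equally numbered arrays also stood in the same row of the slide, so the replicate block is the row of the slide as well. The block changed no call among the members.

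The precision is that of 4 arrays per group. Each matched probe was 1 spot, no probe was matched to *Gsdmd*, and 1 *Nlrp3* probe was at the edge of background. Whether small changes were missed in the dim probes was not tested.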
